A study of Mus musculus with 26 samples.

Results

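RNA-seq profiles of haematopoietic stem cells (HSCs) carrying both JAK2V617F and loss of Ezh2 (double-mutant) were compared with control HSCs, using only libraries whose title gives its number before the group code. This rule kept 11 of the 26 libraries, 7 of the 7 double-mutant and 4 of the 5 control libraries. The values behind the rule are titles, not measurements. The cells were sorted from mouse bone marrow by flow cytometry and amplified with Smart-Seq2, a full-length protocol for very small RNA inputs, and the table gives RPKM, a read count scaled to gene length and library depth. The study also held 7 JAK2V617F and 7 Ezh2 loss libraries, of which 2 each are number-first. The labels call the controls WT or CTR; they give no age, sex, strain, promoter, Cre driver or cell number for any group, and nothing in them ties a library to an animal, so p-values here reflect library-to-library spread alone, which may be technical. The genotype label of the double mutant is spelled JAK2V17F, read here as JAK2V617F. Replicates are numbered by accession within a group, and a shared number does not pair libraries.

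JAK2V617F is an activating substitution in JAK2, the kinase that carries signals from the erythropoietin, thrombopoietin and interferon-gamma receptors to STAT transcription factors, and it drives most cases of Philadelphia-negative myeloproliferative neoplasm. EZH2 is the catalytic subunit of Polycomb repressive complex 2 (PRC2), which methylates lysine 27 of histone H3 and holds developmental genes silent. HSCs are rare, mostly quiescent cells, and a platelet-biased subset of them is marked by von Willebrand factor.

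Estimated depth was 16.7 to 29.2 M reads per library, with means of 18.8 ± 1.5 (SD, n = 4) in controls and 21.1 ± 4.0 (SD, n = 7) in double mutants. Genes at RPKM of at least 1 numbered 10625 ± 355 (SD, n = 4) and 10445 ± 269 (SD, n = 7), which an exact two-sided permutation test did not separate (p = 0.352). The 7 HSC-defining genes checked (Procr, Slamf1, Mecom, Hlf, Fgd5, Kit and Ly6a) summed to 597 to 1074 RPKM in controls and 726 to 1215 in double mutants. The 3 mast cell markers were listed at 0 in all 11 libraries, and the 5 erythroid markers summed to at most 6.13 RPKM. The 4 monocyte markers summed to 0.0746 to 14.7 RPKM in controls and 2.54 to 1086 RPKM in double mutants. The highest of these sums belonged to double-mutant replicate 7, where monocyte Ly6c2 stood at 1072 RPKM. That library alone had the B cell gene Cd79a above 0, at 50.4 RPKM. Neutrophil transcripts differed by library: the 21 listed granule and alarmin genes, 7 to 11 of them above 0 in a control, summed to 287 to 914 RPKM in controls, and 8 to 19 of them to 266 to 53412 in double mutants. The sums of 27650 and 53412 RPKM belonged to double-mutant replicates 3 and 4, where the alarmin S100a8 stood at 12657 and 26771 RPKM. Y-linked Eif2s3y was above 80 RPKM in control replicate 1 and double-mutant replicates 1, 2 and 4, and 0 in 6 others; double-mutant replicate 3 had both Eif2s3y (23.8 RPKM) and Xist (7.74 RPKM).

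The 11 libraries did not form a single block. Double-mutant replicates 3, 4, 6 and 7, whose titles carry the numbers 24 to 27, stood apart from double-mutant replicates 1, 2 and 5 (numbers 2, 13 and 11) and from the 4 controls (numbers 1, 3, 5 and 15). On the first principal component, 19.8% of the variance, they lay between 12.3 and 61.7, while the other double mutants lay between -42.1 and -25.9 and the controls between -31.0 and -6.32. Correlations across tested genes were 0.873 to 0.885 within numbers 2, 11 and 13, 0.851 to 0.870 within numbers 24 to 27, and 0.825 to 0.862 between these ranges. The labels do not say what the numbers mean, and the division was chosen after the data were seen.

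**Figure D1:**
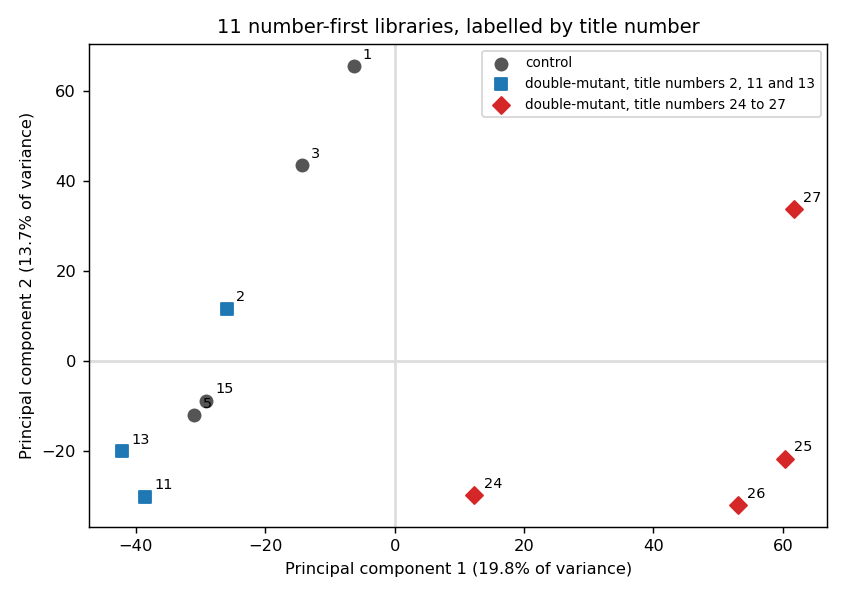
First (horizontal) and second (vertical) principal component of log2(RPKM + 1) for the 11 libraries, each point a library labelled with its title number, coloured by group and number range. The 4 double-mutant libraries numbered 24 to 27 lie at 12.3 or above on the first component and the other 7 libraries at -6.32 or below.

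Within the double mutant, 172 of 11382 tested genes (1.51%) differed between numbers 24 to 27 and numbers 2, 11 and 13 at adjusted p under 0.05 in limma, 49 higher and 123 lower. The ranges were set after these same values were seen, so these calls describe the split and do not test it. The 172 genes included some with large, tight differences. Actb, cytoplasmic beta-actin, was at 5229, 4147, 4306 and 4726 RPKM in the libraries numbered 27, 25, 24 and 26, and at 824, 951 and 845 RPKM in numbers 2, 13 and 11. Serinc3, a membrane protein, stood at 115 to 169 RPKM against 817 to 837 RPKM. Jund, an AP-1 subunit, stood at 6.11 to 9.24 against 114 to 142 RPKM, and Cebpb, a myeloid transcription factor, at 0.645 to 2.07 against 37.9 to 110 RPKM. None of these ranges overlapped.

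These 4 genes also differed by title across genotypes. In all 11 libraries of the series numbered 1 to 23, which hold 4 genotypes, Actb ran from 556 to 1105 RPKM, and in the 11 libraries with the number last it ran from 5059 to 10070 RPKM. Among the single-mutant libraries, none of which is used in the comparison here, 30 of the 49 genes (61.2%) and 67 of the 123 (54.5%) differed the same way and passed between 10 number-last and 4 number-first libraries, and 0 passed the opposite way. Over all tested genes those shares were 2.11% higher and 4.21% lower in number-last libraries. Across all 11382 tested genes, the difference between the number ranges and the difference by title style had a Pearson correlation of 0.208. Gapdh differed from the pattern of the called genes. It had 270 to 352 RPKM in numbers 24 to 27, 178 to 324 RPKM in numbers 1 to 23 and 10.03 to 25.2 RPKM in number-last libraries. Numbers 24 to 27 hold double mutants only, so their title range and the genotype cannot be told apart in those 4 libraries. Results are therefore given for all 7 double-mutant libraries, for the 3 numbered 2, 11 and 13 (the low range) and for the 4 numbered 24 to 27 (the high range), each against the same 4 controls.

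**Figure D2:**
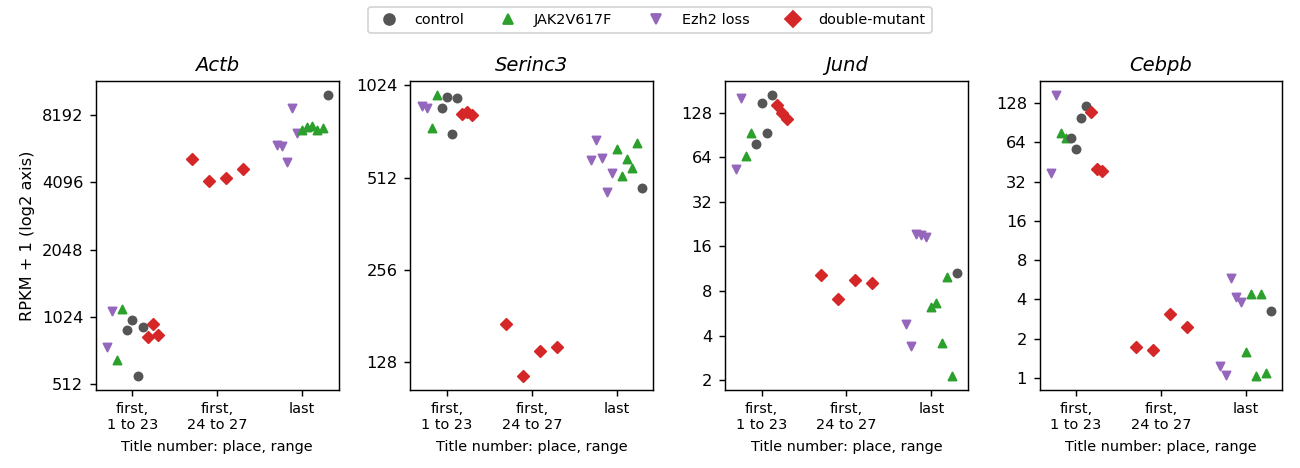
RPKM + 1 (log2 axis) of Actb, Serinc3, Jund and Cebpb in all 26 libraries of the series by place and range of the title number, with symbols for the 4 genotypes. Actb sits between 556 and 1105 RPKM in every library numbered 1 to 23 and at 4147 RPKM or more elsewhere, and Jund and Cebpb show the opposite order.

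The targeted genes did not separate the groups. Ezh2 (GRCm38, chromosome 6, 47530139 to 47595341) was at 18.1, 29.6, 29.5 and 8.11 RPKM in the controls and from 6.71 to 31.4 RPKM, median 15.1, in the double mutants. The groups overlapped, with a log2 difference of -0.28 ± 0.44 (SE; limma adjusted p = 0.934). RPKM covers the whole gene, and no source used here names the deleted exons, so this level does not check the deletion. Jak2 (chromosome 19, 29251828 to 29313080) was at 17.1, 19.3, 14.1 and 21.2 RPKM in controls and at 11.6, 23.5 and 18.2 RPKM in the double mutants numbered 2, 13 and 11. It was at 14.1, 4.44, 5.82 and 1.57 RPKM in numbers 27, 25, 24 and 26. Values below every control occurred in both ranges, and those under 6 RPKM lay in the high range. The log2 difference was -0.94 ± 0.54 (SE; limma adjusted p = 0.744) with all 7, -0.05 with numbers 2, 11 and 13 and -1.60 with numbers 24 to 27; without double-mutant replicate 7 it was -0.62. The JAK2V617F base change was not analysed here.

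Across the transcriptome, 0 of 11382 genes (0%) passed adjusted p under 0.05, and the smallest adjusted p was 0.457. At unadjusted p under 0.05, 405 genes were higher (3.56%) and 409 lower (3.59%) in double mutants. These shares are the background for the counts of list members at unadjusted p under 0.05 given below. All 7 double-mutant libraries lay above all 4 controls for 40 genes (0.351%) and below them for 39 (0.343%). With numbers 2, 11 and 13 alone, 0 genes passed and 479 were higher (4.21%) and 457 lower (4.02%) at unadjusted p under 0.05. With numbers 24 to 27 alone, 152 passed (1.34%), 41 higher and 111 lower, and 435 were higher and 734 lower at unadjusted p under 0.05. Genes below are named by the smallest unadjusted p among the genes without overlap that had a mean of at least 5 RPKM in the higher group, 12 in each direction, and by the smallest p within each gene list. All 24 had the same direction in both number ranges, which the choice of genes without overlap fixed in advance. In numbers 2, 11 and 13, 22 of them were at unadjusted p under 0.05. These libraries also served to choose the genes, so this is not a separate test.

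Interferon-response genes were on the high side in both number ranges. Type I and type II interferons act through JAK kinases and STAT transcription factors, which switch on guanylate-binding proteins, IFIT antiviral proteins and the antigen-presentation machinery. Of 43 tested genes of the Type I interferon response list, 34 were higher in double mutants (48.6% of all tested genes were), with a median log2 difference of 0.44 against -0.02 for all tested genes. At unadjusted p under 0.05, 13 were higher and 0 lower with all 7 libraries, against 3.56% and 3.59% of all tested genes. In the low range 11 were higher and 2 lower, against 4.21% and 4.02% of all genes. In the high range 8 were higher and 0 lower, against 435 and 734 of all 11382 genes. With numbers 2, 11 and 13 the median was 0.47 with 36 higher, where 54.7% of all genes were higher, and with numbers 24 to 27 it was 0.55 with 34 higher, where 46.1% of all genes were. Without double-mutant replicate 7 the median was 0.28, and without the neutrophil-rich libraries numbered 25 and 27 it was 0.48.

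Gbp2, a guanylate-binding GTPase of cell-autonomous immunity (chromosome 3, 142620602 to 142638008), was at 56.4, 16.2, 29.1 and 36.2 RPKM in controls and from 61.4 to 114 RPKM, median 75.6, in double mutants. The groups did not overlap, and the log2 difference was 1.29 ± 0.29 (SE; limma adjusted p = 0.457). Gbp2 was also higher, by 0.97 (limma adjusted p = 0.0282), in number-last than in number-first single-mutant libraries, while H2-D1 (-0.69, limma adjusted p = 0.0115) and Fam89b (-1.85, limma adjusted p = 0.0113) were lower there. In the low and high number ranges the Gbp2 difference was 1.46 and 1.16. Gbp7 ran from 23.2 to 27.9 RPKM in controls and from 31.9 to 55.5 RPKM in double mutants. Gbp2 and Gbp7 were among the 3 of 43 tested members whose groups did not overlap, all on the high side, against 0.351% of all tested genes.

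The interferon-inducible Ifi27l2a was listed at 0 in control replicates 1, 2 and 4 and was at 27.8 RPKM in control replicate 3. It was at 34.9, 22.9, 186, 48.4, 41.7, 8.95 and 195 RPKM in double-mutant replicates 1 to 7. Control replicate 3 therefore lay inside the double-mutant range, and without it Ifi27l2a was the only gene to pass (limma adjusted p = 0.0146). Between number-last and number-first single-mutant libraries, Ifi27l2a differed by -4.09 (limma adjusted p = 0.0364). Ifit1, which binds viral RNA, was at 25.6, 9.82, 19.9 and 3.42 RPKM in controls and from 8.68 to 108 RPKM, median 47.9, in double mutants, with a log2 difference of 1.76 ± 0.57 (SE; limma adjusted p = 0.615). The only double mutant below the highest control for Ifit1 was replicate 6. Further members at unadjusted p under 0.05 included Isg15, Sp100, Irf9, Oasl2, Ifit3, Parp9, Dtx3l and Rtp4. For Isg15 the highest control, at 36.3 RPKM, lay above every double mutant (at most 35.5 RPKM). Gbp, Ifit and Ifi27 genes have near copies in the genome, and how reads shared between copies were counted is not stated.

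Promoters are shown for the 3 list members Gbp2, Gbp7 and Ifit1 because they hold the core of the interferon-stimulated response element, a short repeat found in promoters of interferon-induced genes. Each runs from 250 bases before to 50 bases after the RefSeq start on GRCm38.p6, 5′ to 3′ on the gene's strand (plus for all 3). Capitals mark matches, on either strand, to GAAA followed by any 2 bases and GAAA. The windows are chr3:142620413-142620712, chr3:142530086-142530385 and chr19:34640639-34640938.
Gbp2: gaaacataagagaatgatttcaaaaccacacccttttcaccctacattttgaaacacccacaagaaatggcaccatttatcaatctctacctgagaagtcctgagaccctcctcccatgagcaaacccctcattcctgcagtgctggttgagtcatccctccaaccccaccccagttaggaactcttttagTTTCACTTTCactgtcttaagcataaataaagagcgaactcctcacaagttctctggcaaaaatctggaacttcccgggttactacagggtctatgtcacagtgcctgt
Gbp7: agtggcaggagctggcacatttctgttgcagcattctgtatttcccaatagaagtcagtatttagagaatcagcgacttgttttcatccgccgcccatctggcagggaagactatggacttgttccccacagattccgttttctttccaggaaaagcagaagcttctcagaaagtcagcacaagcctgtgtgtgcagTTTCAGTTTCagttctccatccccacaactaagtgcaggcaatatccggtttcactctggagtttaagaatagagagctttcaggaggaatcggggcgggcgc
Ifit1: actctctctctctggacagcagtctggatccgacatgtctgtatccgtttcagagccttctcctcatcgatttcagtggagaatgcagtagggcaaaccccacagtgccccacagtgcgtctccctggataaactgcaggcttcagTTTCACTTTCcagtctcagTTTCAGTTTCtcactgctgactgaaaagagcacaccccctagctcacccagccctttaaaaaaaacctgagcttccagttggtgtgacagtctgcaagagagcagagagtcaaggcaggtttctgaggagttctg
Counting the base before the start as -1, the matches begin at -59 in Gbp2, at -53 in Gbp7 and at -104 and -85 in Ifit1. Of the 43 tested list members, 30 had a promoter in the table and 15 of these (50%) held the motif, against 3.44% of all 32851 promoters and 3.91% of the tested genes with a promoter. The 15 members with the motif had a median log2 difference of 0.56, with 11 higher and 5 of them at unadjusted p under 0.05. The 15 without it had a median of 0.23, with 12 higher and 4 at unadjusted p under 0.05. A match is a string of letters in this window and does not show binding.

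MHC class I genes, which load and display peptides at the cell surface, had a smaller median difference. Of 20 tested genes of the list, 14 were higher (48.6% of all tested genes were), with a median log2 difference of 0.19, and 3 were at unadjusted p under 0.05. In the low range 11 of 20 were higher, near the 54.7% of all genes, with a median of 0.10, and in the high range 14 were, with a median of 0.16. H2-D1, a classical class I heavy chain, was at 850, 977, 949 and 792 RPKM in controls and from 1159 to 1243 RPKM in double mutants. Its groups did not overlap, with a log2 difference of 0.41 ± 0.11 (SE; limma adjusted p = 0.489); class I heavy chains are near copies of each other, so the split of reads between them is uncertain. Tapbp, the tapasin that holds class I molecules at the peptide transporter, was at 67.7 to 126 RPKM in controls and 104 to 202 RPKM in double mutants, 0.88 higher on the log2 scale (limma adjusted p = 0.489), and only double-mutant replicate 1 lay inside the control range. The third, the peptide transporter subunit Tap1, had a log2 difference of 0.64, which was 0.38 without control replicate 4. Cd1d1, a class I-like molecule that presents lipids, was at 28.5 to 77 RPKM in controls and 87.7 to 173 RPKM in double mutants without overlap (log2 difference 1.13). Of 10 tested MHC class II genes, 9 were higher with a median of 0.22, but the median was -0.14 with numbers 2, 11 and 13 and 0.56 with numbers 24 to 27, and leaving out 1 library gave 0.11 to 0.49. H2-Ob, a chain of the class II peptide editor H2-O, was the 1 class II gene at unadjusted p under 0.05 (log2 difference 1.81), with controls at 0 to 4.83 RPKM and double mutants at 3.88 to 12.1 RPKM.

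**Figure D3:**
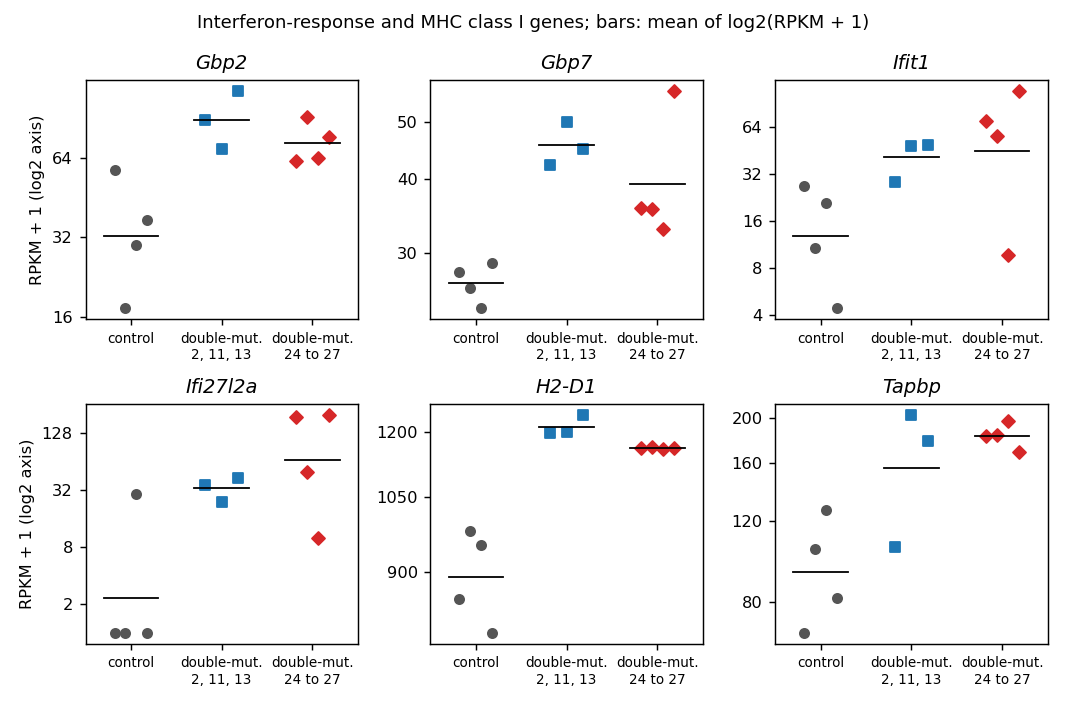
RPKM + 1 (log2 axes that do not start at 0) of Gbp2, Gbp7, Ifit1, Ifi27l2a, H2-D1 and Tapbp in the 4 controls (grey), the double mutants numbered 2, 11 and 13 (blue) and those numbered 24 to 27 (red); bars are means of log2(RPKM + 1). Gbp2, Gbp7 and H2-D1 show no overlap between controls and double mutants, and both number ranges lie on the high side.

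Among JAK-STAT pathway components, 17 of 21 were higher in double mutants, with a median log2 difference of 0.28, or 0.53 and 0.13 with the low and high number ranges. The median was 0.48 without control replicate 3 and 0.42 without double-mutant replicate 3. Among the 3 at unadjusted p under 0.05 were the granulocyte colony-stimulating factor receptor Csf3r and the phosphatase Ptpn6, which dampens cytokine signalling. Csf3r was at 6.71, 2.55, 10.7 and 9.50 RPKM in controls and from 7.35 to 26.9 RPKM, median 18.6, in double mutants (log2 difference 1.31 ± 0.43, SE). Only double-mutant replicate 3 lay below the highest control. Ptpn6 had a log2 difference of 0.52 ± 0.17 (SE). The JAK-STAT targets were split: 12 of 23 were higher, with a median of 0.02, and 1 was higher and 3 lower at unadjusted p under 0.05. Icam1, an adhesion molecule, was at 11.5 to 37.7 RPKM in controls and 32.3 to 82.2 RPKM in double mutants (log2 difference 1.21 ± 0.33, SE). On the low side were the cyclin Ccnd1 (-1.43 ± 0.48, SE), the inhibitor of differentiation Id1 (-1.09 ± 0.38, SE) and the survival factor Mcl1 (-0.86 ± 0.40, SE), and of these Mcl1 was -0.27 with numbers 2, 11 and 13. The STAT site TTCNNNGAA, searched on both strands (its complement is the same string), lay in 6 of the 17 target promoters found (35.3%), Icam1 among them, against 8.30% of all promoters and 8.50% of the tested genes with a promoter.

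Lymphoid-priming genes were higher in both number ranges. All 12 tested members were above control with all 7 libraries (median log2 difference 0.56), where 48.6% of all tested genes were. In each range 10 of 12 were (0.66 for the low range and 0.42 for the high range), against 54.7% and 46.1% of all genes. Only 12 of the 20 listed genes were tested. A gene low in controls, such as Flt3, passed the filter only through the double mutants, which raises the count of members higher. Flt3, the receptor tyrosine kinase that marks multipotent progenitors as they leave the stem cell state (chromosome 5, 147330741 to 147400489), was at 0.866, 1.98, 0.824 and 0.0144 RPKM in controls. It was at 6.59, 18.1, 3.25, 7.49, 2.01, 14.0 and 7.84 RPKM in double-mutant replicates 1 to 7. The groups were apart, though narrowly, since double-mutant replicate 5 and control replicate 2 differed by little, and the log2 difference was 2.16 ± 0.56 (SE; limma adjusted p = 0.489). The 12 B cell genes summed to 62.2 to 109 RPKM in controls and 80.3 to 224 RPKM in double mutants; of the 5 defining ones, 3 were listed at 0 in all 11 libraries, and their part in the lymphoid levels was not tested. In bulk RNA, more cells of a type and more RNA per cell cannot be told apart.

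Myeloid genes varied with the number range and with single libraries. Of 12 tested neutrophil genes, 9 were higher with a median log2 difference of 1.67, but the median was -0.21 with numbers 2, 11 and 13 and 3.06 with numbers 24 to 27. Of 13 tested monocyte and macrophage genes, 9 were higher with a median of 1.27, 0.39 in the low range and 0.78 without double-mutant replicate 7. The neutrophil median was 0.48 without the libraries numbered 25 and 27, and the part of neutrophil transcripts in these levels was not tested. The 20 genes of the monocyte and macrophage list summed to 828 to 1059 RPKM in controls and 859 to 5756 RPKM in double mutants. Among inflammation genes, 19 of 25 were higher (median 0.26; 0.32 and 0.21 in the low and high range; 0.42 without control replicate 4), with Lgals3, Icam1 and the interleukin-1 receptor Il1r1 at unadjusted p under 0.05. Lgals3, the macrophage lectin galectin-3, was listed at 0 in all 4 controls and was at 4.33, 28.9, 19.2, 51.9, 7.23, 0 and 286 RPKM in double-mutant replicates 1 to 7, so 6 of 7 double mutants were above 0. Il1r1 was at 0.0474 to 2.22 RPKM in controls and 2.06 to 6.22 RPKM in double mutants (log2 difference 1.39 ± 0.50, SE).

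Outside the lists, the remaining genes with no overlap on the high side served diverse functions. Gm2a, a lysosomal cofactor that lifts gangliosides out of membranes, was at 40.3, 45.9, 40.2 and 33.1 RPKM in controls, 63.0 to 85.4 RPKM in the low range and 122 to 212 RPKM in the high range. It separated all 3 sets, with a log2 difference of 1.52 ± 0.31 (SE; limma adjusted p = 0.457) overall and 0.85 in the low range. The number-last libraries of the series were at 97.8 to 180.5 RPKM, a range that overlaps the high range. Tacc1, a centrosome and microtubule protein, was at 12.8 to 34.1 RPKM in controls and 37.4 to 79.3 RPKM in double mutants (1.35 ± 0.29, SE). Pck2, the mitochondrial phosphoenolpyruvate carboxykinase, was at 9.19 to 18.8 against 25.4 to 45.8 RPKM (1.27 ± 0.29, SE). Supt16, a subunit of the histone chaperone FACT, was at 3.42 to 8.15 against 9.87 to 33.4 RPKM, with the 3 highest values in the high range. The cytochrome P450 Cyp2j9 (log2 difference 0.92), the Rab exchange factor Dennd1c (1.0) and Fam89b (0.95) were also among the 12, and in the low range they stood at 0.95, 1.18 and 0.74.

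On the low side, 2 of the 20 tested genes of the megakaryocyte and platelet list, Vwf and Clu, showed no overlap. Over all tested genes, the share with all double mutants below all controls was 0.343%. Of the 20 tested genes of that list, 12 were lower, with a median log2 difference of -0.21, and the median was -0.47 with numbers 2, 11 and 13 and 0.02 with numbers 24 to 27. Leaving out 1 library gave medians from -0.26 to -0.08. Vwf, the platelet adhesion protein that marks platelet-biased HSCs (chromosome 6, 125546774 to 125686679), was at 9.88, 9.27, 25.7 and 9.77 RPKM in controls and at 1.47, 5.26, 3.11, 4.30, 4.72, 4.84 and 2.69 RPKM in double-mutant replicates 1 to 7. Every double mutant lay below every control, with control replicate 3 far above the other controls. The log2 difference was -1.55 ± 0.45 (SE; limma adjusted p = 0.606), -1.59 in the low range and -1.52 in the high range, and -1.22 without control replicate 3. Clu, the secreted chaperone clusterin, which is enriched in megakaryocytes and in platelet-biased HSCs (chromosome 14, 65968483 to 65981547), was at 43.0, 44.5, 92.4 and 66.9 RPKM in controls. It was at 0, 14.1, 7.36, 0, 33.5, 16.3 and 29.5 RPKM in double-mutant replicates 1 to 7, again without overlap. Vwf and Clu were the 2 members at unadjusted p under 0.05, both lower, where 3.59% of all tested genes were. The list's sum did not separate the groups: 1625 to 1909 RPKM in controls and 1570 to 1895 RPKM in double mutants.

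Esr1, the oestrogen receptor alpha, which HSCs express (chromosome 10, 4611593 to 5005614), was at 3.58, 1.52, 23 and 4.91 RPKM in controls and at 0.0403, 0.446, 0.0674, 0.473, 0.362, 0.111 and 0.351 RPKM in double-mutant replicates 1 to 7. All double mutants lay under 0.5 RPKM and all controls above 1.5 RPKM. The log2 difference on the log2(RPKM + 1) scale, which understates changes of low genes, was -2.34 ± 0.55 (SE; limma adjusted p = 0.457), and -1.71 without control replicate 3. Nrgn, neurogranin, a calmodulin-binding protein, was at 227, 332, 297 and 254 RPKM in controls, 123 to 210 RPKM in the low range and 54.2 to 123 RPKM in the high range (-1.21 ± 0.29, SE). Between number-last and number-first single-mutant libraries, Nrgn differed by -3.51 (limma adjusted p = 5.57e-08) and Fam108a by -3.46 (limma adjusted p = 0.000771), the direction seen in the high range. Snhg4, a small nucleolar RNA host gene, was at 34.0, 40.2, 27.1 and 38.7 RPKM in controls and from 5.56 to 26.4 RPKM, median 8.68, in double mutants (-1.60 ± 0.42, SE; limma adjusted p = 0.489). Here the low range was the lower, at 5.74, 7.32 and 8.68 RPKM. Igfbp4, which binds insulin-like growth factors, was at 80.7, 120, 112 and 74.9 RPKM in controls and from 47.6 to 68.3 RPKM in double mutants, a tight set (-0.72 ± 0.20, SE).

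**Figure D4:**
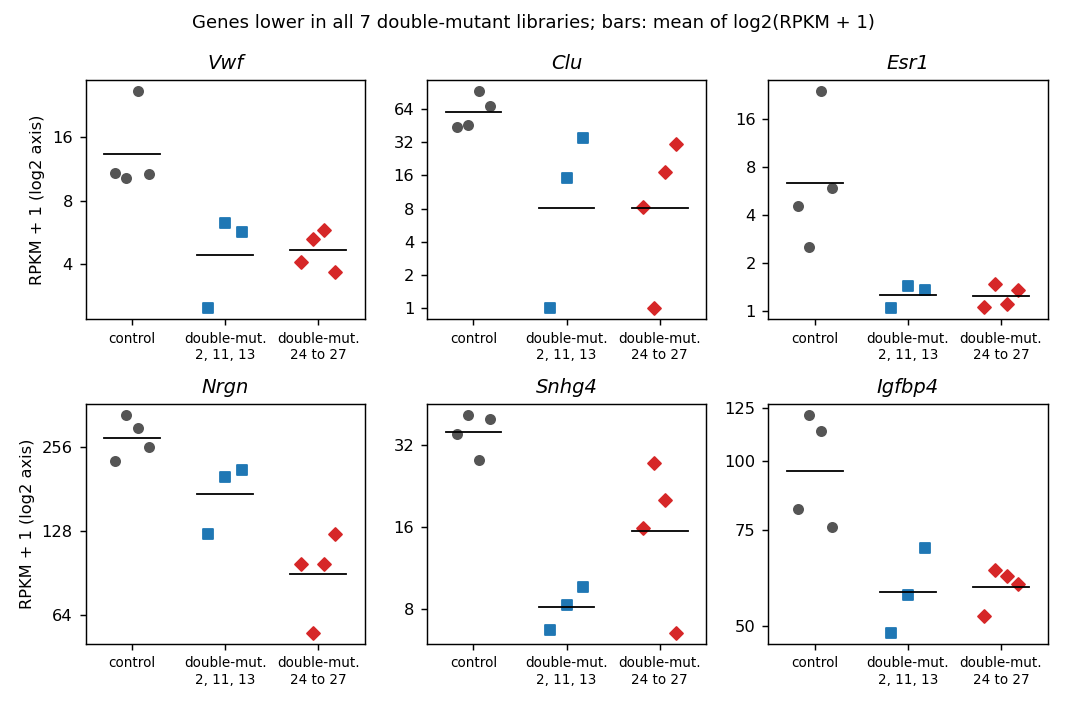
RPKM + 1 (log2 axes that do not start at 0) of Vwf, Clu, Esr1, Nrgn, Snhg4 and Igfbp4 in the 4 controls (grey), the double mutants numbered 2, 11 and 13 (blue) and those numbered 24 to 27 (red); bars are means of log2(RPKM + 1). All 7 double mutants lie below all 4 controls in each panel, and control replicate 3 is the highest control for Vwf, Clu and Esr1.

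The remaining named genes on the low side had diverse functions. Cyb5, the electron carrier cytochrome b5, was at 834 to 967 RPKM in controls and 543 to 776 RPKM in double mutants (-0.49 ± 0.13, SE). Ost4, a small subunit of the oligosaccharyltransferase, was at 374 to 433 against 216 to 336 RPKM (-0.57 ± 0.15, SE), and the mitochondrial import chaperone Timm8b at 228 to 298 against 148 to 214 RPKM (-0.51 ± 0.15, SE). Apopt1, a cytochrome c oxidase assembly factor, had a log2 difference of -0.87 and Krt18, an intermediate filament keratin, -0.60. Tmem88, a membrane protein that restrains Wnt signalling, was at 3.54 to 8.25 RPKM in controls and 0 to 2.70 RPKM in double mutants, and Fam108a, a depalmitoylase listed as Abhd17a in GENCODE, had a log2 difference of -0.98, or -0.44 in the low range. Genes lower at unadjusted p under 0.05 were short, with a median longest transcript of 2095 bases against 3224 bases for all tested genes; in the low range the median was 1620 bases. Of 37 nuclear oxidative phosphorylation genes, 25 were lower (median -0.11), 27 in the low range (-0.28) and 15 in the high range (0.03). Ndufa4, Uqcrb and Cox6c, small subunits of the respiratory chain, differed by -0.42, -0.44 and -0.46 and were at unadjusted p under 0.05. These 3 were also lower, by -0.43, -1.53 and -0.67, in number-last than in number-first single-mutant libraries. Sdha and Ndufs1 were at unadjusted p under 0.05 on the high side.

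HSC identity genes differed by number range. Of 34 tested, 11 were higher (median log2 difference -0.11), 19 with numbers 2, 11 and 13 (0.07) and 9 with numbers 24 to 27 (-0.26). At unadjusted p under 0.05, 2 members were lower, Mllt3 and Tcf15, where 3.59% of all tested genes were. Mllt3, a maintainer of HSC self-renewal, was at 76.4, 53.0, 56.4 and 58.8 RPKM in controls and from 28.9 to 59.9 RPKM in double mutants, and was lower in both ranges (-0.68 and -0.51). Tcf15, which marks the most quiescent HSCs, was at 73.6 to 85.7 RPKM in controls. It was at 69.6 to 88.2 RPKM in the low range and 17.4 to 35.4 RPKM in the high range. The difference of -0.91 with all 7 libraries therefore rests on the high range. Between number-last and number-first single-mutant libraries, Tcf15 differed by -3.24 (limma adjusted p = 0.0127), the direction seen in the high range. Fhl1, a LIM-domain protein of the quiescence list, was at 37.9 to 62.0 RPKM in controls and 8.38 to 43.1 RPKM in double mutants, with -0.90 in the low and -1.52 in the high range. Of the 15 genes of PRC2 and its counterparts, 6 were higher (median -0.01), and 1 was at unadjusted p under 0.05: Aebp2, a PRC2 cofactor, at 6.70 to 10.6 RPKM in controls and 0.590 to 7.24 RPKM in double mutants (-1.07 ± 0.50, SE). Of 12 tested Polycomb-silenced and fetal genes, 5 were higher (median -0.36), and the RNA-binding Igf2bp2 was the 1 at unadjusted p under 0.05 (log2 difference 1.32, or 0.71 without control replicate 2).

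The AP-1 and cell-cycle lists also followed the number range, while the heat shock list was on the low side in both ranges. Of 25 tested AP-1 and immediate early genes, 2 were higher and 23 lower (median log2 difference -0.66). The median was -0.08 with 12 higher in numbers 2, 11 and 13, -1.09 with 1 higher in numbers 24 to 27, -0.99 without control replicate 2 and -0.28 without control replicate 4. Klf2, Atf3 and Mcl1 were the 3 at unadjusted p under 0.05; Klf2, a quiescence-linked factor, was at 49.8, 22.7, 15 and 133 RPKM in controls and 4.75 to 50.9 RPKM in double mutants (-1.44, or -0.86 without control replicate 4). The cyclic AMP response element TGACGTCA, its own complement, lay in 3 of 23 promoters of this list (13.04%) against 1.79% of all promoters and 3.63% of the tested genes with a promoter. The 3 genes holding it, Ppp1r15a, Dusp1 and Btg2, were not at unadjusted p under 0.05, and Klf2, Atf3 and Mcl1 held no match. Heat shock and unfolded protein genes were lower in 20 of 25 (median -0.33; -0.09 and -0.27 in the low and high range; -0.21 without double-mutant replicate 1). Xbp1, the transcription factor of the unfolded protein response, was at 226, 185, 225 and 123 RPKM in controls and 93.1 to 136 RPKM in double mutants, -0.75 and -0.54 in the low and high range. The chaperone Hspe1 (-0.59) and the endoplasmic reticulum factor Manf (-0.75) were also at unadjusted p under 0.05. Medians near 0 moved with single libraries: leaving out 1 library gave -0.19 to -0.07 for HSC identity, -0.19 to 0.07 for PRC2, -0.14 to -0.04 for oxidative phosphorylation, -0.43 to -0.18 for Polycomb-silenced genes, -0.13 to 0.03 for JAK-STAT targets, -0.07 to 0.22 for S phase and -0.09 to 0.06 for MYC and ribosome biogenesis.

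Of 24 tested genes of G2 and M phase, 22 were higher (median log2 difference 0.82), but 8 were with numbers 2, 11 and 13 (-0.28) and 23 with numbers 24 to 27 (1.42); without double-mutant replicate 7 the overall median was 0.48. Plk1, a mitotic kinase, was listed at 0 in all controls and in the 3 double mutants of the low range, and was at 4.50, 11.1, 7.79 and 36.6 RPKM in numbers 27, 25, 24 and 26. Cdc20, the activator of the anaphase-promoting complex, was at 4.02, 9.48, 18.3 and 4.32 RPKM in controls and from 11 to 70.5 RPKM, median 18.6, in double mutants (1.52 ± 0.52, SE). Its low-range values, 13.2 to 18.6 RPKM, lay at the top of the control range or just above it. Of 29 S phase genes, 15 were higher (median 0.07). The replication factor Gins1 was the 1 at unadjusted p under 0.05 (1.63, or 0.74 without control replicate 4). That count of 1 in 29 is near the 3.56% of all tested genes that were higher. Of 25 MYC and ribosome biogenesis genes, 10 were higher (median -0.03), with the spermidine synthase Srm at 128 to 326 RPKM in controls and 125 to 162 RPKM in double mutants. Of 19 glycolysis genes, 13 were higher (median 0.12), including Aldoc, an aldolase, at 0.90. The highest control for Aldoc, at 65.2 RPKM, lay above every double mutant (at most 60.5 RPKM).

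**Figure D5:**
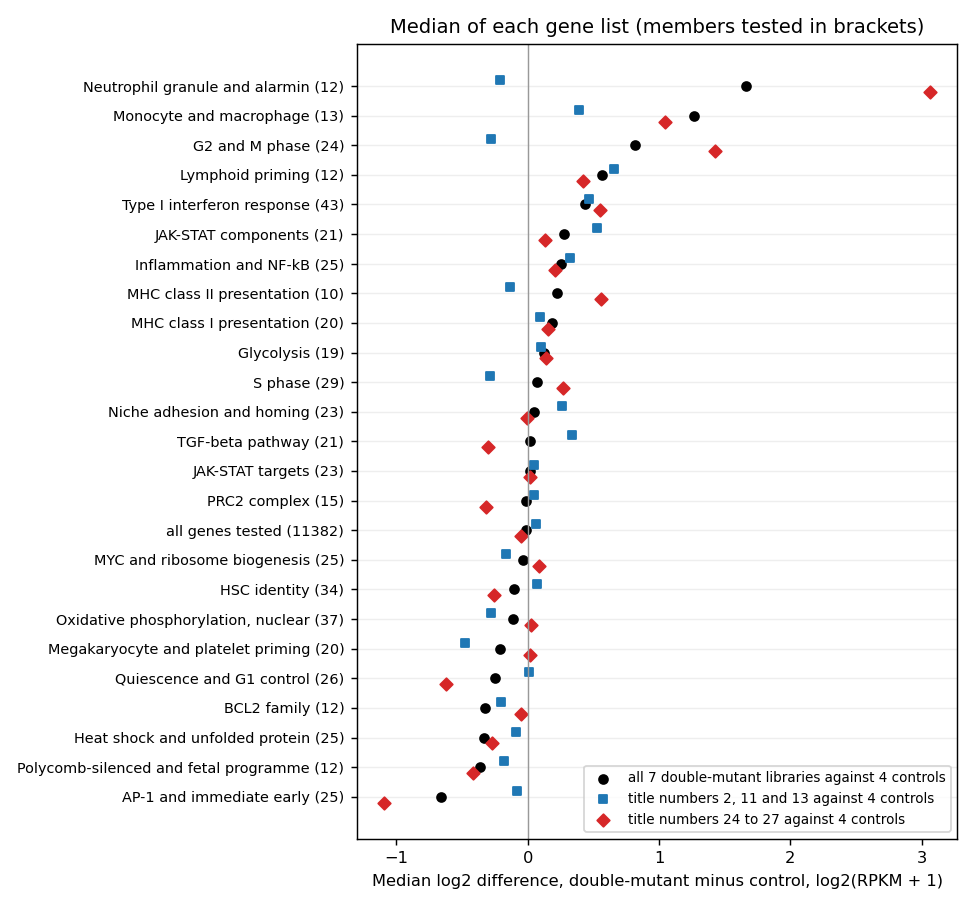
Median log2 difference, double-mutant minus control on the log2(RPKM + 1) scale (horizontal), for each gene list with at least 10 tested members and for all tested genes, with all 7 double-mutant libraries (black), numbers 2, 11 and 13 (blue) and numbers 24 to 27 (red) against the same 4 controls. The Type I interferon, lymphoid priming, JAK-STAT component and inflammation lists lie above 0 in all 3, while the neutrophil, G2 and M phase and MHC class II lists change side between the number ranges.

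The number-first single-mutant libraries, all numbered 1 to 23, are given beside these levels without a test. Gbp2 was at 46.4 and 23.4 RPKM in JAK2V617F and at 47.2 and 38.3 RPKM in Ezh2 loss, below every double mutant. Vwf was at 17.1 and 12.5 RPKM in JAK2V617F, inside the control range, and at 2.15 and 5.16 RPKM in Ezh2 loss, inside the double-mutant range. Esr1 was at 24 and 16.4 RPKM in JAK2V617F and at 0.715 and 0.251 RPKM in Ezh2 loss. For both Vwf and Esr1 these JAK2V617F libraries lay above the lowest control and these Ezh2 loss libraries below it. The number-last Ezh2 loss libraries lay on both sides of the number-last control. They ran from 0.410 to 7.26 RPKM for Esr1 against 0.570 RPKM, and from 2.64 to 6.96 RPKM for Vwf against 5.62 RPKM. The number-last JAK2V617F libraries lay above that control for both genes. Clu was at 31.0 and 35.8 RPKM in JAK2V617F and at 0 and 21.3 RPKM in Ezh2 loss. Snhg4 was at 26.7 and 33.6 RPKM in JAK2V617F and at 34.3 and 27.2 RPKM in Ezh2 loss, above every double mutant. Flt3 was at 0.311 and 2.44 RPKM in JAK2V617F and at 13.2 and 0.121 RPKM in Ezh2 loss, so 1 library of each genotype lay inside the double-mutant range and 1 below it.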

How the data were processed

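The authors deposited 1 table of RPKM for 23416 genes with 1 column per library. The tools named are Subread 1.5.0, STAR 2.4.2a and SAMtools 0.1.19, and the build is mm10 (GRCm38), per the submitters' processing notes; for tool settings, annotation and strand use: not given in the sources used here. Groups came from the labels' genotype field. Depth was estimated from whole-read steps of low RPKM values, taken as whole within a tolerance of 0.01. Relative depth was coherent in 55 of 55 library pairs, which for pairs with the reference library holds by construction. Absolute depth was taken from the most common total, shared by 60 of the 308 genes tried, where the next most common was shared by 6.

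The test covered the 11382 genes that reached an RPKM of 1 in 4 or more of the 11 libraries. Genes at 0 in all 4 controls, such as Lgals3 and Plk1, passed this filter through the double mutants alone. That raises counts of list members that are higher. limma 3.58.1 in R 4.3.3 (lmFit, eBayes with trend and robust, two-sided, no covariate) was fitted to log2(RPKM + 1), with Benjamini-Hochberg adjustment and a threshold of 0.05. The fit was tested on simulated data. Alternatives changed the pseudocount, filter, scaling, weights, covariates and libraries used. Differences and SEs are on this scale.

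The members and lists were chosen with earlier results of these data known, and the lists are described, not tested. Named genes were Ezh2, Jak2, the 12 per direction described above and up to 4 per list by p; others, such as the title-range examples, Gbp7 and the further interferon genes, were chosen after their values were seen. Coordinates are from GENCODE M21 and promoters from RefSeq (GRCm38.p6). Some genes that the naming rule selects are counted but not reported here by name.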

Additional observations from a re-analysis of the deposited data

Results flagged for a closer look

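Within the double mutant, 7 named genes differed between title numbers 24 to 27 and numbers 2, 11 and 13 by limma with Benjamini-Hochberg adjustment over all tested genes. The log2 differences were 1.18 for Gm2a (adjusted p = 0.0263), -1.51 for Tcf15 (adjusted p = 0.0302), -3.85 for Jund (adjusted p = 8.61e-05) and 3.61 for Plk1 (adjusted p = 0.0261). They were 2.39 for Actb (adjusted p = 9.27e-07), -2.55 for Serinc3 (adjusted p = 1.74e-05) and -4.70 for Cebpb (adjusted p = 0.000873). All 4 libraries of the high range lay on the same side of all 3 of the low range for each. The ranges were set after these values were seen, so the adjusted p-values describe the split and do not test it.

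In 72 checks of single libraries within a group, 3 lay far from the rest, about the number that chance gives at 1 in 20. Control replicate 3 was the highest control for Vwf (25.7 RPKM) and for Ifi27l2a (27.8 RPKM). Double-mutant replicate 1 was the lowest double mutant for Tapbp (104 RPKM).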

How the results depend on the processing

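No gene passed with another pseudocount, filter, scaling, weighting or eBayes setting, with all 5 controls, or with detected genes, neutrophil transcripts, Xist or Eif2s3y as covariate. With all 26 libraries 1 passed with a term for title style (Gm2a) and 1 with a term for 3 title classes (Mir3470a), and the latter left 263 genes higher at unadjusted p under 0.05; with numbers 24 to 27 only, 152 passed and 734 were lower. Detected genes as covariate gave 617 higher. Leaving out 1 library gave 0 to 1 passing, 299 to 480 higher and 254 to 470 lower at unadjusted p under 0.05 (254 without control replicate 4, 269 without control replicate 1), and 55 to 128 and 52 to 127 genes without overlap, higher and lower. Genes without overlap numbered 1 higher and 3 lower with a gap of at least 0.5, 21 and 22 with all 5 controls, 499 and 423 with numbers 2, 11 and 13 only, 251 and 453 with numbers 24 to 27 only, and 139 and 122 without numbers 25 and 27; fewer libraries allow more. All 24 named genes kept their sign in every setting in which they were tested (30 for Esr1 and Tmem88, 31 for the others). Where a setting only left out libraries, the choice of genes without overlap fixed that sign in advance. Reversed values were Jund at 0.14 with numbers 2, 11 and 13 only and with title number above 15 as covariate, and, with 3 title classes, Jund at 0.13, Jak2 at 0.00322 and Actb at -0.00978; the cause was not tested. No paired analysis was possible because replicate numbers only follow the order of deposition and the groups share no title number. Depth limits low genes: Flt3, Esr1 and Tmem88 rest on few reads in some libraries.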
